A study of Homo sapiens with 5 samples.

Results

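The calls described here are positions that a caller reported as start sites of nascent transcription. They lay inside an annotated gene, more than 1000 bp away from either end of any gene. None had an opposite-strand call in the 1000 bp upstream of it. They are called unpaired internal calls below. The rule used the position and strand of the calls alone and found 3551 of them among 28159 calls on chromosomes 1 to 22 and X, or 12.6% (Wilson 95% interval 12.2 to 13.0%). They made up 61.1% of the 5811 distal calls inside genes; the other 2260 were paired.

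The calls came from PRO-seq, in which engaged polymerases in isolated nuclei add biotin-labelled nucleotides to the RNA that they are making, in HUDEP-2 cells, an immortalised line of human erythroid progenitors. The series held 3 single-cell clones edited with sg1617, a guide against the erythroid enhancer of BCL11A, in which the edit was a 1 bp insertion, a 13 bp deletion or a 15 bp deletion, with 1 library each, and 2 libraries of wild-type cells. Each edit was thus represented by 1 clone. The calls were deposited as 1 list per strand, with no column per library and a score of 0 in all 28283 calls. They were made from 1 alignment of HUDEP-2 cells, whose name matches no sample title. Whether it held wild-type cells, edited cells or both is not stated. The calls therefore allow no comparison of edited with wild-type cells and have no replicates. They do not show how many reads stood behind a call, so read depth is unknown. A call is a start site by the caller's output alone, and whether each call in a gene is a separate start was not tested. Intervals below cover counting over calls or genes only, and calls in the same gene are not independent.

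RNA polymerase II usually starts in both directions at a promoter or an active enhancer, so that a start site is accompanied by one on the other strand a short way upstream. A start inside a gene may be an alternative promoter that makes a shorter transcript, an intronic enhancer, or a start of antisense RNA that runs back toward the promoter. In red cell precursors, intronic enhancers are known in BCL11A, in NPRL3 next to the alpha-globin genes, and in several genes of erythroid transcription factors.

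Some of the calls lay at annotated inner promoters, where their sequence could be read from the RefSeq table of promoter windows (GRCh38.p14, 250 bases before to 50 after each annotated start). The 9 sequences that follow belong to the unpaired internal calls of the listed genes within 50 bp of such a start, and they are shown because they place the call against the bases of a promoter. Each runs 5′ to 3′ on the strand of the call and is 51 bases long, and the capitals mark the called base and the base after it.
BCL11A: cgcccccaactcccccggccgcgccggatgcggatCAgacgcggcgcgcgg
BCL2L1: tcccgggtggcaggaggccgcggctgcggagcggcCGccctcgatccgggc
CCND3: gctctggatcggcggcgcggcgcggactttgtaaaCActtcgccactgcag
KMT5A: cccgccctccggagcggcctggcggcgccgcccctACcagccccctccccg
LDB1: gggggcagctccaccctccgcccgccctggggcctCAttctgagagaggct
NFIA: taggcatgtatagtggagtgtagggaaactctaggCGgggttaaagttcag
TMCC2: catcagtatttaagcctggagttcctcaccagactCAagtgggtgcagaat
TPM4: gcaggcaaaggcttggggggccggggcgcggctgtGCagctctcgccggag
ZFPM1: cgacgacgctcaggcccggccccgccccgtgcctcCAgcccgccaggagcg

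In the order printed, these stretches lie at chr2:60550893-60550943 (reverse strand), chr20:31722857-31722907 (reverse strand), chr6:42048670-42048720 (reverse strand), chr12:123388873-123388923 (forward strand), chr10:102114988-102115038 (reverse strand), chr1:61082525-61082575 (forward strand), chr1:205256165-205256215 (forward strand), chr19:16076462-16076512 (forward strand) and chr16:88453244-88453294 (forward strand). In 5 of the 9, those of BCL11A, CCND3, LDB1, TMCC2 and ZFPM1, the capitals read CA, the pair of bases that most often surrounds a start of polymerase II. Over all 209 unpaired internal calls within 40 bp of an annotated start, the called base and the next one read CA in 86 (41.1%, interval 34.7 to 47.9%), whereas the called base and the one before it read CA in 2 (0.957%). Paired internal calls had CA in the first position in 33.8% of 299, and all calls in 33.8% of 7398, with 33.0% for forward and 34.6% for reverse calls. Where CA was present, the called coordinate was thus most often its C, 1 base before its A, on both strands. Whether the caller or the alignment sets this position is unknown, so the capitals do not show which base the RNA starts with.

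The promoter windows held an inner or outer start for genes on 22 of the 23 chromosomes; chromosome 8 was not used for them, which left 3312 unpaired internal calls. Of these, 217 (6.55%, interval 5.76 to 7.45%) lay within 50 bp of an annotated start of their own strand, against 321 of 2174 paired internal calls (14.8%, interval 13.3 to 16.3%). This difference was not tested. The 217 were sharply placed, with a median offset of 0 bp and quartiles at -1 and 8 bp. Their windows had a median of 23 CG dinucleotides in 300 bases, against 30 at the 321 starts with a paired internal call and 14 in all 34789 windows, and their median GC content was 64.7%, against 68.3% and 58.7%. The TATA box letters TATAAA on the start's strand stood in 4 of the 217 windows (1.84%), against 0.935% of the windows with a paired internal call and 7.34% of all windows. The letters AGATAA of a GATA site, or TTATCT for the other strand, stood in 17 (7.83%, interval 4.95 to 12.2%), against 4.36% at the paired starts and 10.4% of all windows. The letters CCAAT, or ATTGG for the other strand, stood in 35.02% of the 217, against 40.2% at the paired starts and 34.6% of all windows. The 7201 windows with a promoter call or other call that was not distal had medians of 28 CG dinucleotides and 66.3% GC. TATAAA stood in 3.12% of them, AGATAA or TTATCT in 4.07% (interval 3.64 to 4.55%) and CCAAT or ATTGG in 39.3%. The share of the 217 with AGATAA was thus above that of these called starts and below that of all windows, which was not tested. The TMCC2 window was the one of the 9 printed genes that held AGATAA, and it had 5 CG dinucleotides, against 47 in that of ZFPM1.

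Most unpaired internal calls were thus not at an annotated start, and the strand of the host gene was used to describe them. A host was given a strand when it had a promoter call, that is a call within 500 bp of its outer end, at 1 end only. This oriented 1897 of the 3551 calls, in 1233 host genes. The promoter call was on the annotated strand in 982 hosts, or 98.1% of those with an annotated strand. Of the 1897, 971 lay on the strand of the host's promoter call and 926 on the opposite strand (51.2% and 48.8%, interval of the first 48.9 to 53.4%). The larger strand depended on the distance rule, with 57.0% on the host's strand over 2000 bp and 43.6% over 500 bp from gene ends, and it was 46.3% without genes with 5 or more calls. Same-strand calls alone were found in 477 hosts, opposite-strand calls alone in 584 and both in 172.

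The near-even split over whole genes was made of unlike parts along the gene. Between 1 and 2 kb from the promoter end, 279 opposite-strand calls stood beside 75 same-strand calls. Per Mb of sequence where a call could have met the rule, this was 34.7 (exact Poisson interval 30.7 to 39.0) and 9.33 (7.34 to 11.7). Between 2 and 5 kb the densities were close, at 6.74 opposite-strand and 7.57 same-strand calls per Mb. Between 5 and 10 kb the order was the other way, with 2.32 opposite-strand (interval 1.85 to 2.88) and 4.79 same-strand calls per Mb (interval 4.09 to 5.56), and it was the same from 10 to 20 kb, with 1.58 and 2.66. Between 50 and 100 kb the intervals overlapped again, at 1.02 and 0.981 per Mb. The share on the host's strand was 21.2% (interval 17.3 to 25.7%) at 1 to 2 kb and 67.3% (interval 61.3 to 72.8%) at 5 to 10 kb. No test was made of these densities, since calls in 1 gene share their source and the rule removed paired calls. Paired internal calls had 13.6 opposite-strand and 19.8 same-strand calls per Mb at 1 to 2 kb, so the order of the strands there was the reverse among them. Of the 279 opposite-strand calls at 1 to 2 kb, 278 had a facing call within 2000 bp downstream, which the host's promoter call at its end supplies by construction, and 105 had one within 1000 bp.

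**Figure D1:**
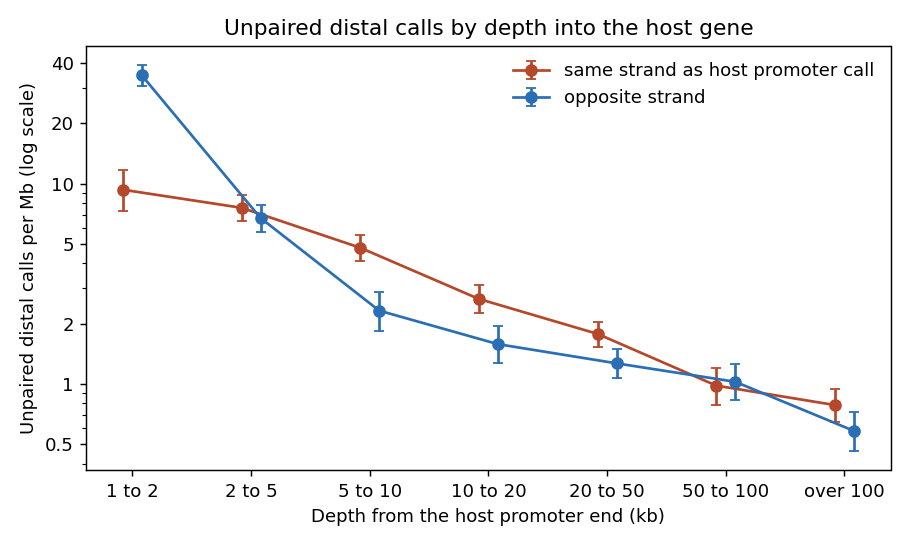
Density of unpaired internal calls per Mb of eligible sequence (log scale) against depth from the host's promoter end in kb, with exact Poisson 95% intervals, for calls on the same strand as the host's promoter call and on the opposite strand. The opposite strand stands at 34.7 per Mb at 1 to 2 kb, above 9.33 for the same strand, and lies below the same strand at 5 to 10 kb.

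Same-strand calls had a median depth of 12505 bp (quartiles 4838 and 41293 bp), or 39.0% of the host's length, and opposite-strand calls 6427 bp (quartiles 1706 and 34894 bp), or 21.3%. Over 2000 bp from gene ends the order turned, with medians of 16404 bp for same-strand and 20069 bp for opposite-strand calls. Depth was counted from the gene's outer end, and an inner promoter could be nearer. Where the annotated strand was that of the promoter call, 137 of 708 same-strand calls (19.4%) and 121 of 727 opposite-strand calls (16.6%) lay over 1000 bp closer to an annotated inner start of the host than to its outer end. Counted from the nearest annotated start, 279 of the 727 opposite-strand calls (38.4%) lay within 2000 bp downstream, against 107 of the 708 same-strand calls (15.1%).

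In these lists a larger share of same-strand than of opposite-strand calls stood in runs, and CA1 and TFRC carried part of the gap. Another same-strand call lay within 1000 bp of 316 of the 971 (32.5%, interval 29.7 to 35.6%) and of 215 of the 926 (23.2%, interval 20.6 to 26.04%). Without CA1 and TFRC, the 2 hosts with most calls, it lay near 251 same-strand calls (27.9% of the rest, interval 25.03 to 30.9%). This interval overlaps that of the opposite strand. Over 2000 bp from gene ends, with these 2 hosts kept, the intervals lay apart. The share in runs was then 27.9% for same-strand calls (214 of 768, interval 24.8 to 31.1%). For opposite-strand calls it was 15.9% (92 of 580, interval 13.1 to 19.1%). The next call on the same strand upstream was at a median of 6130 bp for same-strand and 73424 bp for opposite-strand members. These medians are not alike by construction. The host's promoter call always lies upstream of a same-strand call on its own strand, and opposite-strand calls have no such call. That promoter call can also lie within 1000 bp of a same-strand call, so the shares in runs are not alike by construction either. Over 2000 bp from gene ends it lies too far away to count. Opposite-strand calls more often faced another call: the nearest call on the other strand began within 1000 bp downstream, so that both pointed at each other, for 209 opposite-strand calls (22.6%) and 110 same-strand calls (11.3%). Of the 209, 105 lay within 2000 bp of the promoter end, where the host's promoter call can be the facing call. Same-strand calls cannot face that promoter call, so the 2 shares are not alike by construction. Over all 3551 calls, 624 (17.6%) had such a facing call, at a median distance of 527 bp. These differences were not tested.

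Set beside the other distal calls, 34.5% of unpaired internal calls (interval 33.0 to 36.1%) had no other call within 10 kb, against 42.7% of the 1378 unpaired calls between genes (interval 40.1 to 45.3%). Paired calls cannot be isolated by the rule. Facing calls were at 17.6% of unpaired internal calls, 21.9% of paired internal calls and 13.3% of unpaired calls between genes. At the edge of the pairing rule, 22 unpaired internal calls had an upstream partner in the first 100 bp past the 1000 bp limit, and 19 paired ones had it in the last 100 bp before. At the edge of the distance rule, 148 lay in the first 100 bp past the limit of 1000 bp from a gene end, and 166 other unpaired calls inside genes lay in the last 100 bp before.

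**Figure D2:**
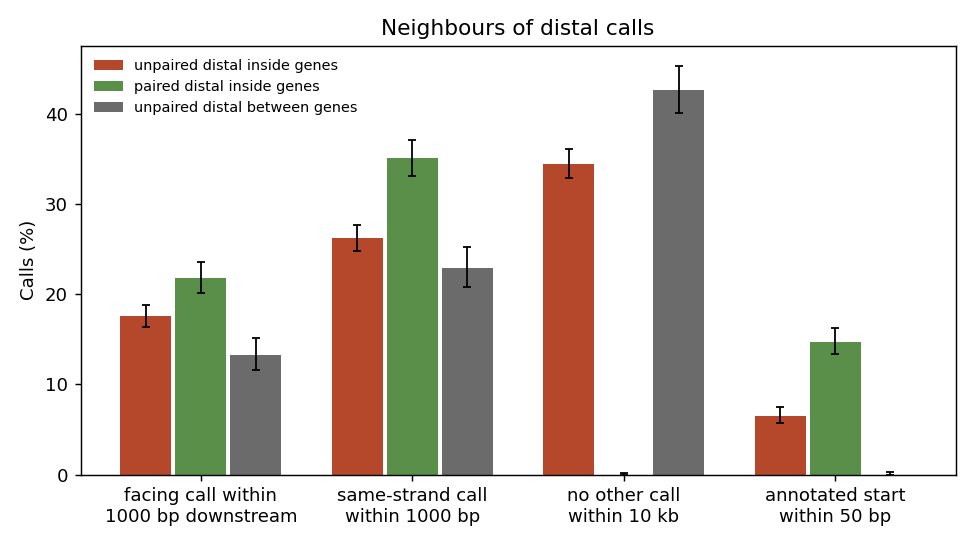
Shares in percent, with Wilson 95% intervals, of unpaired internal calls, paired internal calls and unpaired distal calls between genes that had a facing call, a same-strand call within 1000 bp, no other call within 10 kb, or an annotated start of their strand within 50 bp. Unpaired internal calls lay between the other kinds for facing calls and for isolation, and calls between genes had no annotated start within 50 bp by definition.

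Unpaired internal calls were spread over many genes and piled up in a few. Chromosome 8 gave the highest share of its calls, 239 of 1210 (19.8%), and chromosome 6 the lowest, 9.71%. Of the 239 on chromosome 8, CA1 held 38, SLC25A37 and ANK1 13 each and MYC 11. The host was protein-coding for 3134 calls (88.3%) and a long non-coding RNA gene for 368 (10.4%), and whether a call lay in an exon or an intron was not determined. The calls had 2372 host genes, and 886 of the 1233 oriented hosts held 1 call. The 55 hosts with 5 or more held 456 calls (12.8%). Of protein-coding genes with eligible sequence, 2121 of 18596 held at least 1, a background of 11.4%. Among genes called at 1 end this was 14.3%, and among genes called at neither end 9.04%. Same-strand calls were in 7.63% and opposite-strand calls in 8.76% of genes called at 1 end.

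The 10 hosts with most same-strand calls were led by genes of iron uptake and red cell function. CA1 (chr8:85327608-85378113), the red cell carbonic anhydrase 1, held 38 from 1266 to 48883 bp deep with 0 opposite-strand calls, or 0.854 per kb of eligible sequence. TFRC (chr3:196049284-196082090), the transferrin receptor that brings iron into the cell, held 32 from 1042 to 30525 bp, again with 0 on the opposite strand, or 1.11 per kb. Their neighbouring calls followed each other closely, with a median gap upstream of 540 bp in CA1 and 447 bp in TFRC. The smallest gaps were 253 and 257 bp, and whether calls of such runs are separate starts was not tested. ITGA4, the alpha-4 integrin subunit that binds erythroblasts to macrophages, held 18, of which 6 formed a cluster from 60905 to 63357 bp deep. SLC25A37, which carries iron into mitochondria, held 13, of which 6 lay within 1028 to 2679 bp of its far end. The short genes MALAT1, an abundant nuclear non-coding RNA, MYC, a driver of cell growth, and PIM1, a kinase gene, held 11, 11 and 8, with the densest packing of the 10 hosts, at 2.29, 1.99 and 2.44 per kb. PPP1R10, a regulatory subunit of protein phosphatase 1, held 9, all within 6823 bp of its promoter end.

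HMGB1, a chromatin protein, and SRSF1, a splicing factor, completed the list with 9 and 6 calls. In HMGB1 5 calls lay 156810 to 159611 bp from the promoter call at the gene's outer end. The same calls lay 4453 to 7254 bp downstream of an annotated inner start on their strand. All 9 were on the same strand as the promoter call, and the other 4 lay 113427 to 150726 bp deep.

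Opposite-strand calls reached lower numbers per gene, with 5 or more in 2 hosts, against 16 hosts for same-strand calls. KSR1, a scaffold of the MAP kinase pathway, held 7 opposite-strand calls and 1 same-strand call, spread from 1401 to 146331 bp deep. LEPR, the leptin receptor, held 5, from 1704 to 118176 bp, and 2 on its own strand. ANP32A, a histone-binding nuclear protein, held 4 in a tight run from 2034 to 2958 bp, with a median gap of 327 bp. PISD, the mitochondrial enzyme that makes phosphatidylethanolamine, held 4 at 24964 to 36667 bp, 3 of which had a facing call within 1000 bp. FAM53B, RREB1, a zinc finger transcription factor, MAD1L1, a spindle checkpoint protein, and the model gene LOC107984156 held 4 each. In LOC107984156 the call 5790 bp deep lay inside 2 genes, 1 bp downstream of an annotated start of MYO1C on the strand of the call. MKNK2, a kinase of translation factor eIF4E, and MEX3C, an RNA-binding ubiquitin ligase, held 3 each, of which 2 lay within 2392 and 1885 bp of the promoter end.

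**Figure D3:**
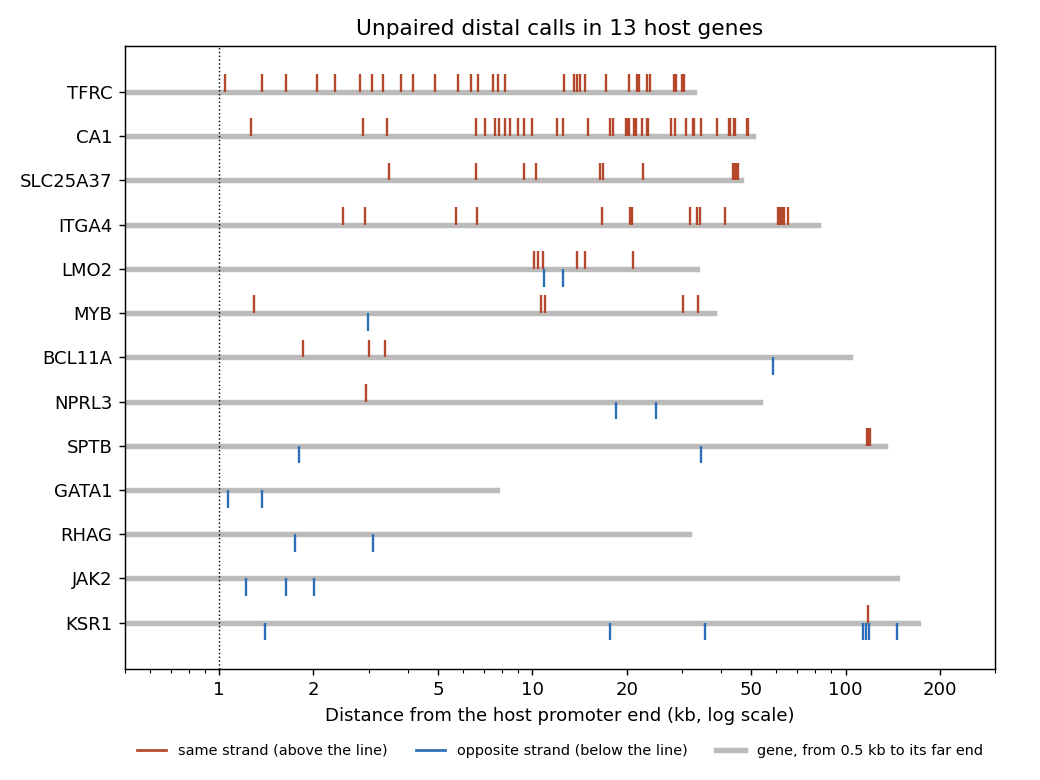
Positions of unpaired internal calls in 13 host genes, as distance from the host's promoter end in kb (log scale); marks above a line are on the strand of the host's promoter call and marks below it on the opposite strand, grey lines span the gene and the dotted line marks the 1 kb limit of the rule. TFRC, CA1, SLC25A37 and ITGA4 carry same-strand marks alone, and GATA1, RHAG and JAK2 opposite-strand marks alone, all within 3104 bp.

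Lists of erythroid genes held unpaired internal calls in more of their members than protein-coding genes at large. The lists had been chosen with earlier results on these calls known, and calls around erythroid genes had been seen to be frequent, so the shares below are descriptions and were not tested. Over 6 lists, 57 of 103 genes with eligible sequence held at least 1 call (55.3%), against the background of 11.4%. Pooled over genes, this was 34.9 calls per Mb of eligible sequence, against 2.67 over all protein-coding genes, and 22.97 without CA1, TFRC and SLC25A37. Longer genes have more room for a call, and the median eligible length was 35.8 kb in the lists and 24.2 kb over all genes. Within like lengths the shares were 12 of 24 (50%) against 5.96% up to 20 kb, 21 of 39 (53.8%) against 11.5% from 20 to 50 kb, and 24 of 40 (60%) against 19.2% above. The lists also differed in promoter calls: 73 of the 103 genes (70.9%) were called at 1 end, against 8006 of all 18596. Over all protein-coding genes, 14.3% of those called at 1 end held a call, against 9.04% of those called at neither end. The shares above were not matched for this. Same-strand calls were in 30 of 73 list genes called at 1 end (41.1%) against 7.63%, and opposite-strand calls in 25 (34.2%) against 8.76%.

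**Figure D4:**
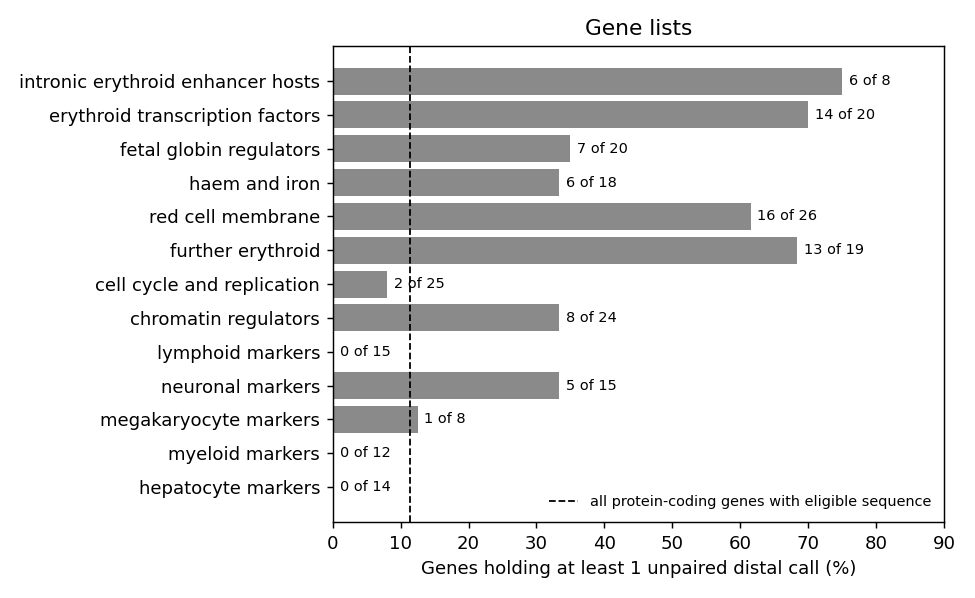
Share of genes of each list, in percent, that held at least 1 unpaired internal call, with the count of genes beside each bar and the share over all protein-coding genes with eligible sequence, 11.4%, as a dashed line. The lists of erythroid enhancer hosts, transcription factors, membrane proteins and further erythroid genes reach 61.5 to 75%. Fetal globin regulators (35%) and haem and iron genes (33.3%) stand near chromatin regulators and neuronal markers (33.3% each). The lymphoid, myeloid and hepatocyte lists, whose genes have short eligible sequence, stand at 0.

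Hosts of intronic erythroid enhancers held calls in 6 of 8 genes. In BCL11A, the repressor of fetal globin genes, 3 same-strand calls lay 1852, 3016 and 3375 bp deep, and the call at 3016 bp was 1 base upstream of an annotated inner start, in the sequence printed above. The fourth, at 60495297 on chromosome 2, was on the opposite strand 58627 bp deep, in the part of the gene where the enhancer targeted by sg1617 lies, and the nearest other call was 55252 bp away. NPRL3, whose introns hold the alpha-globin enhancers, had opposite-strand calls 18459 and 24882 bp deep and a same-strand call at 2947 bp. RUNX1, a haematopoietic transcription factor, had same-strand calls 140858 and 158125 bp deep and an opposite-strand call at 22217 bp. ZFPM1, the GATA1 cofactor FOG1, had 4 calls and CCND3, the D-type cyclin of erythroid divisions, had 3, but neither had a promoter call at its outer ends. ANK1 is described with the membrane genes. ALAS2, the first enzyme of haem synthesis in red cells, and HBS1L, a neighbour of MYB, held 0.

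Of the erythroid transcription factors 14 of 20 held calls, RUNX1 and ZFPM1 among them. GATA1 (chrX:48786590-48794311), the master regulator of the lineage, had 2 on the opposite strand, 1070 and 1366 bp deep, 296 bp apart, and 0 on its own strand. LMO2, the bridging protein of the TAL1 complex, had 6 same-strand calls from 10139 to 20912 bp and 2 opposite-strand calls at 10897 and 12534 bp, and the first of these faced a same-strand call 60 bp away. MYB, needed for progenitor growth, had same-strand calls at 1294, 10682, 10981, 30193 and 33835 bp and an opposite-strand call at 2979 bp. GFI1B, a repressor, held 7 calls, 6 on the forward strand, and LDB1, which loops enhancers to promoters, held 6, both without a promoter call at an outer end. IKZF1 held 5 and KLF3 2 same-strand calls. FOXO3 held 1 on each strand, GATA2 and NFE2 1 same-strand call each, and E2F2 and STAT5B 1 opposite-strand call each.

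Among fetal globin regulators 7 of 20 held calls, BCL11A and MYB among them. SOX6, a repressor that works with BCL11A, had 2 same-strand calls 132401 and 132665 bp deep that faced 2 opposite-strand calls at 133432 and 133876 bp, with 767 bp between the inner ones. NFIX had 4 and NFIA 2 calls, and 1 of NFIA lay 1 base upstream of an annotated inner start. MTA2, a NuRD subunit, and IGF2BP1, an RNA-binding protein of fetal cells, had 1 same-strand call each, at 1942 and 25014 bp.

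The haem and iron list had calls in 6 of 18 genes, nearly all on the same strand, with 49 same-strand and 2 opposite-strand calls in its genes called at 1 end. TFRC and SLC25A37 held 32 and 13 of the 49. CPOX, a haem synthesis enzyme, had 2 same-strand calls at 8125 and 9869 bp. ABCB10, a mitochondrial transporter of erythroid cells, had a same-strand call at 1822 bp and opposite-strand calls at 1863 and 2260 bp, the first of which faced it at 41 bp. SLC25A38, the mitochondrial glycine carrier, and SLC11A2, an iron transporter, had 1 each.

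Red cell membrane genes held calls in 16 of 26. SPTB, which encodes beta-spectrin, had a run of 4 same-strand calls from 117075 to 119290 bp deep, that is 14334 to 16549 bp from its far end, and opposite-strand calls at 1795 and 34549 bp. RHAG, the Rh-associated glycoprotein, had 2 opposite-strand calls, at 1751 and 3104 bp, and EPB41, RHCE and TMOD1 had 1 opposite-strand call each, at 1176, 1339 and 2134 bp. GYPC, glycophorin C, had same-strand calls at 2971 and 18161 bp and an opposite-strand call at 1867 bp. ERMAP had 2 same-strand calls and KEL 1. ANK1, the ankyrin of the membrane skeleton, held 13 calls, 11 of them reverse, ADD2, beta-adducin, 4 reverse calls in a row within 4501 bp of its left end, and DMTN, dematin, 4, all without a promoter call at an outer end. TPM4 had 2, and SLC2A1, TPM3 and GYPB had 1 each. RHCE and GYPB have near-identical copies, so their calls are uncertain.

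In the list of further erythroid genes 13 of 19 held calls. Beside CA1 and PIM1, CA2, carbonic anhydrase 2, had same-strand calls at 2753 and 3807 bp, and BNIP3L, which clears mitochondria from maturing red cells, at 7339 and 8295 bp. JAK2, the kinase of the erythropoietin receptor, had 3 opposite-strand calls at 1223, 1641 and 2013 bp, and KIT, the stem cell factor receptor, had 1 at 1946 bp. TMCC2 had an opposite-strand call at 1553 bp and a same-strand call at 28254 bp, 2 bases upstream of the annotated inner start whose sequence is printed above. BCL2L1, a survival gene, had a same-strand call at 1091 bp and an opposite-strand call at 1342 bp, 251 bp apart and facing. UBAC1 had 3, TRAK2 and HEMGN 2 each, and SELENBP1 and XPO7 1 opposite-strand call each.

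Over the 6 erythroid lists, opposite-strand calls had a median depth of 2197 bp over 34 calls, and same-strand calls 10837 bp over 141 calls. CA1, TFRC and SLC25A37 held 38, 32 and 13 of the same-strand calls, and without these genes the same-strand median was 7999 bp over 58 calls. Over 2000 bp from gene ends the order turned here too, with medians of 15419 bp over 20 opposite-strand and 14072 bp over 108 same-strand calls. Within 3 kb lay 19 opposite-strand calls of the erythroid hosts (55.9%), in 15 genes, against 361 of 892 in other hosts (40.5%), a difference that was not tested. For same-strand calls these were 21 of 141 (14.9%) in erythroid hosts and 110 of 830 (13.3%) in other hosts. In other hosts the median depths were 6701 bp for opposite-strand and 12698 bp for same-strand calls.

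Lists outside the lineage gave other values. Cell cycle and replication genes held calls in 2 of 25 (8%), E2F3 and CCND3, close to the background of 11.4%. CCND3 is also in the list of erythroid enhancer hosts, so its 3 calls are counted in both lists. Chromatin regulators held calls in 8 of 24 (33.3%), but with 4.14 per Mb against 2.67 over all genes and a median eligible length of 89.9 kb. Among them were the methyltransferase genes KMT2A, KMT2D, KMT5A and DNMT3A, and ARID1B, ASXL1 and TET3, and KMT5A had 2 same-strand calls at 4300 and 4776 bp. The lymphoid, myeloid and hepatocyte markers held calls in 0 of 15, 0 of 12 and 0 of 14 genes, which allow shares of up to 20%, 25% and 21.4%, above the background. The median eligible lengths of these 3 lists were 12.9, 5.41 and 13.5 kb, and 0, 2 and 1 of their genes were called at 1 end. Neuronal markers held calls in 5 of 15, which are DLG2, NCAM1, GRIN2B, SYT1 and GRIN1, at 0.683 calls per Mb, below the 2.67 of all genes. Their median eligible length was 307 kb, and 1 of the 15 was called at 1 end. The single megakaryocyte marker with a call, of 8, was ITGA2B. The globin genes are too short to hold a base over 1000 bp from both ends and could have no such call.

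The 1654 calls without an oriented host lay mostly (1598) in genes with no promoter call at either end. Of these 1654, 43.5% had no other call within 10 kb, against 28.9% of same-strand and 24.2% of opposite-strand calls in oriented hosts. Oriented hosts have a promoter call by definition, so calls near it cannot be isolated. Within 10 kb of the promoter end lay 43.8% of same-strand and 56.4% of opposite-strand calls. The grouping thus builds in part of this difference. An annotated start of their strand lay within 50 bp of 9.23% of the calls without an oriented host, against 7.83% of same-strand and 0.458% of opposite-strand calls. With the annotated strand of the host, 626 of 1294 calls without an oriented host (48.4%, interval 45.7 to 51.1%) were on the host's strand. The gene with most, named after its values were seen, was CD36, a fatty acid receptor also used as a marker of erythroid progenitors, with 21 forward calls and 1 reverse call, and the annotated strand of CD36 is forward. GSE1 followed with 6 forward and 8 reverse calls, and ANK1 with 2 and 11.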

How the data were processed

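The deposited data were 2 lists of start sites, made by TSScall, per the file headers, from 1 HUDEP-2 alignment that had been sorted and cleared of duplicates. The submitters' processing notes name deepTools 3.5.4, SAMtools 1.17, Picard and BWA 0.7.16a, and build hg38. For TSScall, neither version nor read minimum is given in the sources used here. The authors deposited a score of 0 for every call, so calls could not be ranked or filtered. Each call was 1 base long and its end coordinate was used. Gene ends came from RefSeq GRCh38.p14 (59098 genes), and annotated starts, strands and sequences from the RefSeq promoter windows of 27195 genes on the same build.

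A host was, of the containing genes with a promoter call at 1 end, the protein-coding one, then the longest. Counts per gene and per list used every call inside the gene. Eligible sequence was sequence inside a gene and more than 1000 bp away from any gene end. Shares have Wilson and densities exact Poisson 95% intervals. For marker lists in which 0 genes held a call, the upper share given was 3 divided by the number of genes, not a Wilson limit. No p-value was computed: there are no replicates, and the rule chose the calls from the same lists. The 10 hosts with most same-strand and opposite-strand calls and the list genes holding a call were named, and of the enhancer hosts also those holding none; some list genes are not reported here. The calls and the gene lists were chosen with earlier results of these data known. Membership, strand and depth were tested on 1299 simulated calls over 2179 genes against a call-by-call recomputation, with 0 disagreements. The computation ran on Python 3.11.15 with pandas 2.3.3, numpy 2.4.6 and scipy 1.17.1, and figures were drawn with matplotlib 3.10.9.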

Additional observations from a re-analysis of the deposited data

How the results depend on the processing

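Each of 8 values was recomputed under up to 15 alternatives; taking host strands from annotated starts, leaving out calls within 500 bp of an annotated start, leaving out CA1 and TFRC, the value at 1 to 2 kb, and the runs and erythroid depths recomputed without the hosts with most calls or over 2000 bp from gene ends were chosen after seeing the data. Of 119 recomputed values 86 stayed within the counting interval of the reported value (for the number of calls, within 1.5 times). The share of opposite-strand calls among those 1 to 2 kb deep, 78.8%, stayed between 74.2% (partner window 500 bp) and 87.3% (2000 bp) and could not be computed at over 2000 bp from gene ends. The share on the host's strand crossed 50%, so no direction is given for it over whole genes. It was 57.0% over 2000 bp and 43.6% over 500 bp from gene ends, 48.7% with same-strand calls within 500 bp merged, 46.3% without genes with 5 or more calls, 48.8% with annotated strands and 48.5% without calls at annotated starts. Over 2000 bp and over 500 bp from gene ends, the median depth was 20069 and 1697 bp for opposite-strand and 16404 and 10143 bp for same-strand calls, the share in runs 22.02% and 33.4%, the share with a facing call 15.0% and 26.8%, and the share of protein-coding genes 9.54% and 14.4%. With annotated strands the medians were 12703 bp (opposite) and 17843 bp (same), and with a partner window of 2000 bp the same-strand median was 14572 bp. Runs fell to 12.7% with merging and 20.4% without genes with 5 or more calls, and stood at 28.6% with a partner window of 500 bp. With protein-coding genes alone as annotation, runs were at 28.0%, facing calls at 19.0% and genes with a call at 12.9%. Genes with a call were at 10.4% for calls inside 1 gene and 10.5% without calls at annotated starts. Forward and reverse calls alone gave 1758 and 1793 calls, in 6.63% and 6.52% of genes. The cause of these changes was not tested. No paired analysis was possible because the lists have no column per library. The depth behind a call is unknown and limits every count.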
